A study of Homo sapiens with 27 samples.

Results

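The steroid-converting enzymes examined here were 6 genes of androgen metabolism and related lipid pathways, SRD5A1, SRD5A3, HSD17B4, HSD17B11, HSD17B12 and AKR1C3, out of 20268 genes with a row in any of the deposited tables. They were chosen by name as steroid reductases and 17β-hydroxysteroid dehydrogenases, by a rule that holds no measured value, though earlier results of these data were known. PAC-seq, which sequences the 3′ ends of polyadenylated RNA, was performed on 27 libraries from 3 prostate cancer cell lines to ask where transcripts end after knockdown of CPSF1, the largest protein of CPSF, the complex that directs cleavage and polyadenylation of RNA. LNCaP is an androgen-sensitive line, and LNCaP95 and 22Rv1 grow without hormone. LNCaP and 22Rv1 were kept in RPMI with 10% FBS and LNCaP95 in phenol-red-free RPMI with 10% FBS, so that LNCaP95 and its medium cannot be told apart. Each line was transduced with lentivirus carrying a control shRNA (CTRL sh) or 1 of 2 hairpins that target CPSF1, named CPSF1 sh1 and CPSF1 sh2, then selected with puromycin as a pool and grown for 72 h. There were 3 biological replicates in each of the 9 groups, which gave 3 control and 6 knockdown libraries per line.

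SRD5A1 encodes a steroid 5α-reductase that converts testosterone to dihydrotestosterone, the most potent natural androgen. SRD5A3 carries the same family name and reduces polyprenol to dolichol, the lipid carrier for N-glycosylation. The 17β-hydroxysteroid dehydrogenases interconvert steroids with a keto or a hydroxyl group at carbon 17. HSD17B4 is a peroxisomal enzyme that oxidizes estradiol and also acts in peroxisomal fatty acid β-oxidation, HSD17B11 is a lipid droplet enzyme, and HSD17B12 is the ketoacyl reductase of very-long-chain fatty acid elongation. AKR1C3 reduces androstenedione to testosterone and is a known enzyme of intratumoral androgen synthesis in prostate cancer. CPSF recognizes the poly(A) signal, most often AATAAA, upstream of the cleavage site, and transcripts that are not cleaved there can end further downstream.

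The sequences below show the poly(A) signal at the annotated end of each gene, where the reads of the 3′ UTR table were counted for all genes but SRD5A1. They were read from the GRCh37 (hg19) genome at the 3′ ends of GENCODE transcript models lifted to that build, and are written 5′ to 3′ on the strand of the gene. Capitals mark every AATAAA or ATTAAA in the stretch.
SRD5A1 (chr5:6674470-6674499, plus strand): atctATTAAAaaaaaaactgagtggaaaaa
SRD5A3 (chr4:56239238-56239267, plus strand): atatATTAAAgaagaccttaaaacagtaaa
HSD17B4 (chr5:118877998-118878027, plus strand): ATTAAAtcAATAAAggcctttgataccttt
HSD17B11 (chr4:88257676-88257705, minus strand): ggaaAATAAAttgtgcaatctttttttaaa
HSD17B12 (chr11:43878136-43878165, plus strand): agttgAATAAAtatatagctttatgaaaaa
AKR1C3 (chr10:5149849-5149878, plus strand): agacAATAAAtttttatcattttgaaataa
From the first base of the signal nearest the end through the last base of the transcript there were 22 to 35 bases. SRD5A1 and SRD5A3 had ATTAAA and the 3 HSD17B genes and AKR1C3 had AATAAA, HSD17B4 with an ATTAAA before it. Of 19540 canonical protein-coding ends in the same annotation, 62.8% held AATAAA and 17.4% held ATTAAA in their last 40 bases on the strand of the gene, and 76.8% held either. These matches describe letters and not sites of cleavage.

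The authors counted reads in 4 regions of each gene: the 3′ UTR, extended by 300 bases, the introns, the coding sequence (CDS), and the 10 kb that follow. For SRD5A1 the 3′ UTR region ended at chr5:6669975, and the annotated end printed above lay 4524 bases beyond it, within the 10 kb region (chr5:6669975-6679974). Reads at the annotated end of SRD5A1 were therefore counted as 10 kb reads. The 10 kb region of SRD5A3 (chr4:56239563-56249562) overlapped LINC02928, a long non-coding RNA of the same strand, over 9759 bases, and a gene model of the same strand, ENSG00000288695, over 10000 bases. The 10 kb region of HSD17B11 (chr4:88247463-88257462) lay inside a same-strand long non-coding RNA, ENSG00000255723. Reads of these neighbours and of transcripts that ran on from SRD5A3 or HSD17B11 cannot be told apart in a count. The span of ENSG00000288695 also covered the 3′ UTR region of SRD5A3, and that of ENSG00000255723 the 3′ UTR region of HSD17B11. Both spans reached into the introns of these genes, so that reads of the models cannot be told apart there either. The 10 kb regions of HSD17B12 (chr11:43878467-43888466) and AKR1C3 (chr10:5150178-5160177) held no other gene on their strand. The introns of HSD17B4 were counted up to chr5:118972894, past the end printed above at chr5:118878027, and its 10 kb region began beyond them at chr5:118973194.

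AATAAA was common in the downstream regions. It stood on the strand of the gene in 97.5% of the 15661 full 10 kb regions, at a median of 9 copies. HSD17B11 had 23 copies and AKR1C3 had 21, numbers matched or passed by 3.83% and 6.00% of all regions. SRD5A1 had 14 copies, SRD5A3 had 8, and HSD17B4 and HSD17B12 had 6 each.

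Reads per library numbered 1725670 to 6549383 in the 3′ UTR table, 936970 to 3580071 in introns, 603941 to 1889628 in CDS and 170330 to 728430 in the 10 kb table, and the library 22Rv1 CTRL sh 1 was the shallowest overall. CPSF1 itself was lower after knockdown in the 3′ UTR table, by −1.19 on the log2 scale in LNCaP, −1.05 in LNCaP95 and −0.73 in 22Rv1 (edgeR quasi-likelihood test, adjusted p = 8.31e-05, 0.000301 and 0.0164), with 6 of 6 knockdown libraries below all controls in each line. With CPSF1 sh1 alone the change in 22Rv1 was −0.63 (edgeR adjusted p = 0.410). Of the luminal prostate markers, KLK3 stood at 314 to 1803 CPM in LNCaP, 1070 to 4402 CPM in LNCaP95 and 32.0 to 57.2 CPM in 22Rv1, and HOXB13 at 206 to 341, 201 to 243 and 157 to 222 CPM, where CPM are reads scaled to the library total. The markers of basal, fibroblast, blood and endothelial cells, each class summed apart, reached at most 41.0 CPM, in the fibroblast class in LNCaP95, and the neuroendocrine pair CHGA and SYP summed to 45.4 to 67.3 CPM in 22Rv1 and to 3.94 to 15.8 CPM in the other lines. In 22Rv1 SYP stood at 42.3 to 64.7 CPM and CHGA at 1.16 to 4.71 CPM.

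Levels below are CPM of the table named, after TMM scaling over the 27 libraries, and are compared between lines or treatments within a gene. Changes are log2 fold changes ± SE from the edgeR quasi-likelihood test, with p adjusted by Benjamini-Hochberg over all genes tested in that table and called at 0.05. In such bulk libraries fewer expressing cells and less RNA per cell cannot be told apart.

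Without knockdown, the 3′ UTR reads of both 5α-reductase genes were highest in LNCaP95. SRD5A3 stood at 179.6, 167.4 and 179.7 CPM of 3′ UTR reads in the LNCaP95 controls, at 70.1, 61.4 and 63.1 in LNCaP and at 62.1, 64.3 and 66.3 in 22Rv1. LNCaP95 did not overlap the other lines, and was 2.71-fold above 22Rv1 (edgeR adjusted p = 3.80e-07) and 2.70-fold above LNCaP (edgeR adjusted p = 9.08e-07). LNCaP and 22Rv1 did not differ beyond their spread (−0.003 ± 0.15, edgeR adjusted p = 0.991). SRD5A1 had the same order, with 19.2, 20.2 and 24.4 CPM in LNCaP95, 10.4, 8.77 and 8.43 in LNCaP and 5.82, 7.54 and 6.73 in 22Rv1. It was 2.30-fold higher in LNCaP95 than in LNCaP (edgeR adjusted p = 0.00112) and 3.08-fold higher than in 22Rv1 (edgeR adjusted p = 6.83e-05), while LNCaP and 22Rv1 differed by −0.42 ± 0.29 (edgeR adjusted p = 0.241). In the 10 kb table, which holds its annotated end, SRD5A1 stood at 304, 289 and 130 CPM in LNCaP95, 239, 135 and 167 in LNCaP and 26.1, 106 and 113 in 22Rv1. There LNCaP95 and LNCaP differed by 0.39 ± 0.32, which was not called (edgeR adjusted p = 0.596), while 22Rv1 was lower than LNCaP95 (−1.36 ± 0.34, edgeR adjusted p = 0.000975), and lower than LNCaP by −0.97 ± 0.34, a call close to the threshold (edgeR adjusted p = 0.0469) that held in 1 of 6 other settings.

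The HSD17B genes differed in another direction, with HSD17B11 and HSD17B12 highest in 22Rv1. HSD17B11 stood at 140.4, 131.9 and 128.7 CPM in the 22Rv1 controls, 30.5, 16.8 and 21.8 in LNCaP95 and 11.0, 14.7 and 12.3 in LNCaP. No line overlapped another. The level in 22Rv1 was 10.5-fold that in LNCaP (edgeR adjusted p = 2.65e-09) and 5.82-fold that in LNCaP95 (edgeR adjusted p = 2.16e-08), and LNCaP95 was 1.81-fold above LNCaP (edgeR adjusted p = 0.00639), a call that was lost without the library LNCaP95 CTRL sh 1 (0.59, edgeR adjusted p = 0.0504). HSD17B12 stood at 99.6, 91.1 and 91.9 CPM in 22Rv1, 68.0, 52.4 and 66.4 in LNCaP and 50.6, 52.1 and 45.8 in LNCaP95. It was 1.52-fold higher in 22Rv1 than in LNCaP (edgeR adjusted p = 0.00526) and 1.91-fold higher than in LNCaP95 (edgeR adjusted p = 0.000105), and LNCaP95 and LNCaP did not differ beyond their spread (−0.33 ± 0.16, edgeR adjusted p = 0.112). For HSD17B4 no difference between lines was called, where the LNCaP controls had 97.8, 112.7 and 91.9 CPM, those of LNCaP95 91.9, 122 and 76.3 CPM, and those of 22Rv1 62.1, 101.4 and 71.5 CPM. Its 3 differences between lines lay between −0.35 and −0.07 on the log2 scale, and without 22Rv1 CTRL sh 2 that between 22Rv1 and LNCaP was −0.57 and called (edgeR adjusted p = 0.0421).

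AKR1C3 was measured well in 22Rv1 alone. It had 77.0, 80.0 and 72.2 CPM of 3′ UTR reads in the 22Rv1 controls, but 8, 1 and 8 reads in the LNCaP controls and 2, 4 and 1 reads in the LNCaP95 controls, so that it passed the filter on low values in this comparison through 22Rv1. These are means of 76.4 CPM in 22Rv1, 1.55 CPM in LNCaP and 0.472 CPM in LNCaP95, and the groups of 22Rv1 and the other lines did not overlap. No fold or test is given for a gene that entered through its high line and is near 0 in the others. AKR1C3 is a close paralog of AKR1C1, AKR1C2 and AKR1C4, which lie beside it, and its counts are uncertain where a read could match more than 1 of them. In 22Rv1 controls AKR1C1 had a mean of 99.4 CPM and AKR1C2 of 94.6 CPM in the same table.

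Counted over the set, 11 of 18 control comparisons of 3′ UTR reads were called, 9 higher and 2 lower, of which 2 of those higher are AKR1C3 in 22Rv1. Of all genes tested, 39.3% were called between LNCaP95 and LNCaP, 47.2% between 22Rv1 and LNCaP and 54.6% between 22Rv1 and LNCaP95, so that a called difference between lines was common. In introns 8 of 18 were called (all genes 24.2%, 31.0% and 38.3%), 6 higher and 2 lower, or 7 higher and 1 lower without TMM factors. Of the 10 kb comparisons 8 of 15 were called (all genes 5.77%, 10.6% and 15.3%), 4 higher and 4 lower, a split that became 7 and 2 without TMM factors and 5 and 3 when libraries were scaled to the reads of all 4 tables. Over all reads of a gene 13 of 18 were called (all genes 43.9%, 53.1% and 59.3%), 9 higher and 4 lower. These counts also hold AKR1C3. They include it in introns between 22Rv1 and LNCaP95, in the 10 kb table between LNCaP95 and LNCaP, and over all reads in every comparison. In the LNCaP95 controls AKR1C3 had means of 0.926 CPM in introns and 0.967 CPM over all reads. It passed the filter there through the other lines. No difference of AKR1C3 is drawn from these calls. In CDS 0 of 6 were called by edgeR (all genes 24.0%, 28.6% and 35.8%), with 0 at an unadjusted p under 0.05 and 0 by DESeq2, and only HSD17B4 and HSD17B12 had enough reads to be tested.

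The 10 kb reads separated the lines most for HSD17B12 and HSD17B11. HSD17B12 had 39.9, 30.1 and 21.6 CPM of 10 kb reads in the LNCaP95 controls, from 13, 8 and 7 reads, against 411, 366 and 324 CPM in LNCaP and 883, 571 and 497 in 22Rv1. LNCaP95 lay below the other lines without overlap, by −3.59 ± 0.34 against LNCaP (edgeR adjusted p = 5.22e-23), and 22Rv1 stood 4.52 ± 0.34 above it on the log2 scale (edgeR adjusted p = 1.13e-37). HSD17B11 had 329, 299 and 214 CPM in 22Rv1, 33.7, 12.8 and 35.6 in LNCaP and 3.07, 7.51 and 37.1 in LNCaP95, the last from 1, 2 and 12 reads. The 22Rv1 controls were above those of LNCaP by 3.46 ± 0.43 (edgeR adjusted p = 7.77e-14) and above those of LNCaP95 by 4.19 ± 0.45 (edgeR adjusted p = 3.94e-18), the latter being 5.79 without LNCaP95 CTRL sh 3.

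**Figure D1:**
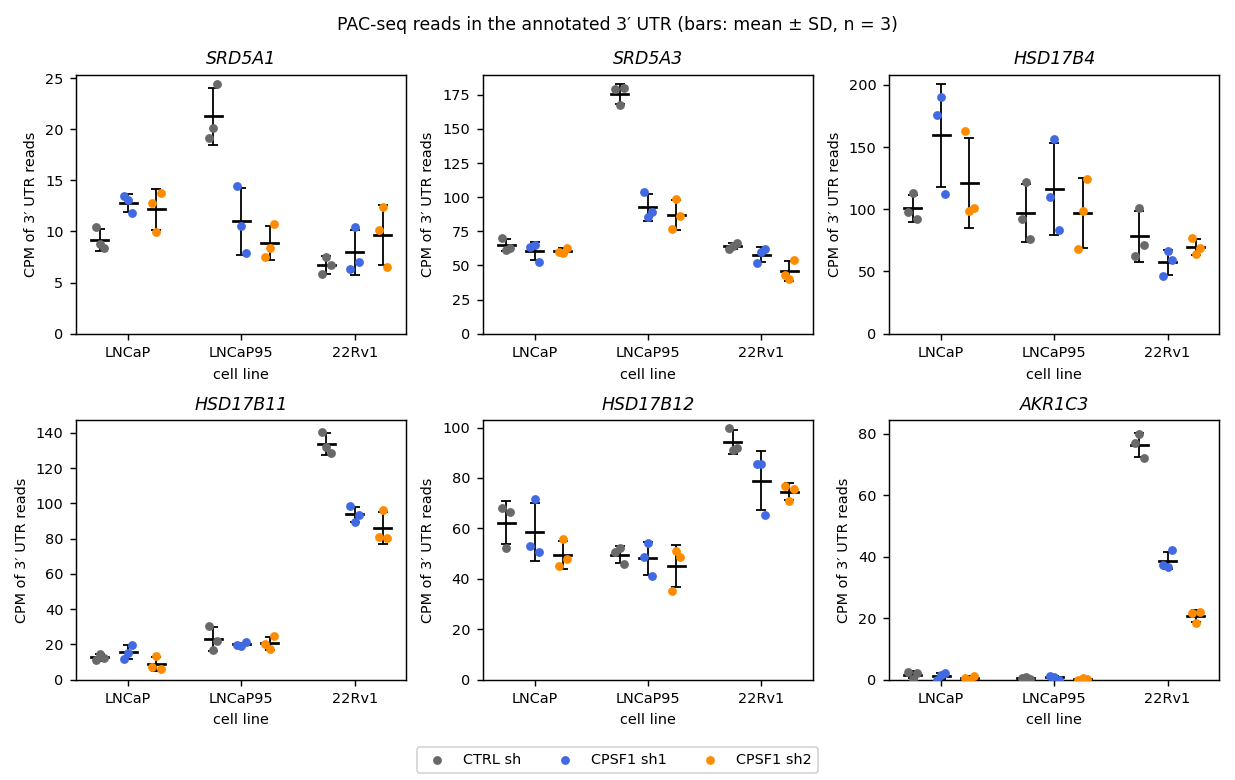
Reads in the annotated 3′ UTR of the 6 genes, as CPM on the vertical axis, by cell line and shRNA, where points are libraries and bars the mean ± SD of 3. SRD5A1 and SRD5A3 are highest in the LNCaP95 controls, at 19.2 to 24.4 and 167.4 to 179.7 CPM, and lower there in each CPSF1 shRNA group, and AKR1C3 is high in 22Rv1 and lower with each CPSF1 shRNA.

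After CPSF1 knockdown both 5α-reductase family members fell in LNCaP95, the line with their highest level. SRD5A3, at a mean of 175.5 CPM of 3′ UTR reads in the LNCaP95 controls, had 76.7, 87.5 and 103.5 CPM as the lowest, median and highest of the 6 knockdown libraries, all below the controls. The change was −0.96 ± 0.13 (edgeR adjusted p = 2.12e-05). In LNCaP the knockdown libraries ran from 52.9 to 64.7 CPM and overlapped the controls (−0.08 ± 0.13, edgeR adjusted p = 0.712), and in 22Rv1 they ran from 40.1 to 62.1 CPM, with 6 of 6 below all controls, a change that was not called (−0.32 ± 0.15, edgeR adjusted p = 0.361). SRD5A1 went from 21.2 ± 2.79 CPM (SD, n = 3) to 9.92 ± 2.60 CPM (SD, n = 6) in LNCaP95, with 7.47, 9.46 and 14.5 CPM as the lowest, median and highest knockdown library. All 6 lay below the 3 controls, and the change was −1.08 ± 0.22 (edgeR adjusted p = 0.00118). In the other lines SRD5A1 had changes of +0.47 ± 0.22 in LNCaP and +0.36 ± 0.29 in 22Rv1, neither of which was called (edgeR adjusted p = 0.160 and 0.636).

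The response of both genes was different in LNCaP95 by a test of the difference itself. For SRD5A1 the change in LNCaP95 minus that in LNCaP was −1.55 (edgeR adjusted p = 0.00147), and that in 22Rv1 minus that in LNCaP95 was 1.45 (edgeR adjusted p = 0.00456). For SRD5A3 these differences were −0.87 (edgeR adjusted p = 0.000879) and 0.64 (edgeR adjusted p = 0.0130). These were the 4 differences called among 18 for 3′ UTR reads, where 10.3% of all genes were called for LNCaP95 against LNCaP, 5.71% for 22Rv1 against LNCaP and 11.7% for 22Rv1 against LNCaP95. Comparisons between lines share their LNCaP95 libraries.

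Among HSD17B4, HSD17B11 and HSD17B12, HSD17B11 fell in 22Rv1 and no other change of 3′ UTR reads was called. HSD17B11 had 80.4, 91.4 and 98.4 CPM as the lowest, median and highest knockdown library in 22Rv1, all below the controls of 128.7 to 140.4 CPM, and a change of −0.58 ± 0.12 (edgeR adjusted p = 0.0194). The call was lost without 22Rv1 CTRL sh 2 or 3 or without 22Rv1 CPSF1 sh2 1 or 3, where the change was −0.55 to −0.61 and the edgeR adjusted p between 0.0557 and 0.0798. HSD17B12 in 22Rv1 had 65.3 to 85.7 CPM, below its controls in 6 of 6 libraries, but a change of −0.30 ± 0.13 that was not called (edgeR adjusted p = 0.281). HSD17B4 spread widely, with 98.4 to 189.9 CPM in LNCaP (+0.49 ± 0.20, edgeR adjusted p = 0.0963), 67.9 to 156 CPM in LNCaP95 (+0.15 ± 0.21, edgeR adjusted p = 0.621) and 46.6 to 76.9 CPM in 22Rv1 (−0.32 ± 0.17, edgeR adjusted p = 0.435), all overlapping the controls.

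AKR1C3 fell by the largest amount of the set in the 3′ UTR table, in 22Rv1. The 3 CPSF1 sh1 libraries had 36.7, 37.4 and 42.0 CPM and the 3 CPSF1 sh2 libraries had 18.5, 21.7 and 21.8 CPM, against 72.2 to 80.0 CPM in the controls. None of the 3 groups overlapped, and the change with both shRNAs was −1.37 ± 0.22 (edgeR adjusted p = 0.00467). Taken alone, CPSF1 sh2 gave −1.88 (edgeR adjusted p = 0.000116) and CPSF1 sh1 gave −0.97, which was not called (edgeR adjusted p = 0.0668). In LNCaP the knockdown libraries had 0 to 12 reads and in LNCaP95 0 to 6 reads, and the gene was not tested there. The paralogs AKR1C1 and AKR1C2 had 61.1 and 59.4 CPM in the 22Rv1 knockdown libraries, with changes of −0.70 and −0.68 that were not called (edgeR adjusted p = 0.116 and 0.151).

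In all, 4 of 16 tested changes of 3′ UTR reads were called, each of them lower. Over all genes 18.3% were called in LNCaP, 30.5% in LNCaP95 and 1.47% in 22Rv1, and 10.1%, 15.2% and 0.791% were called lower. The enzymes had 0 of 5 called in LNCaP by edgeR, with 1 at an unadjusted p under 0.05, 2 of 5 called in LNCaP95 and 2 of 6 in 22Rv1.

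Reads counted as intronic gave a different picture, led by HSD17B4, for which reads in introns and reads past its usual end cannot be told apart. Its intron region, which extends past the usual end of the gene, had 36.2, 76.2 and 54.0 CPM in the LNCaP95 controls and 94.6, 129.5 and 162.8 CPM as the lowest, median and highest knockdown library. All 6 knockdown libraries lay above the controls, with a change of +1.19 ± 0.21 (edgeR adjusted p = 7.43e-05). In LNCaP the controls had 77.6, 58.4 and 75.9 CPM and the knockdown libraries 88.4 to 119.7 CPM, again without overlap (+0.57 ± 0.15, edgeR adjusted p = 0.00720). The LNCaP call was lost without TMM factors (0.53, edgeR adjusted p = 0.0546), on the scale of all 4 tables (0.28, edgeR adjusted p = 0.269) and without LNCaP CTRL sh 2 (0.44, edgeR adjusted p = 0.0931). In 22Rv1 the groups overlapped (+0.18 ± 0.15, edgeR adjusted p = 0.617).

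SRD5A1 was the other enzyme with an intronic change. It fell in LNCaP95 from 57.2, 31.7 and 52.7 CPM to 19.6, 25.2 and 29.1 CPM as the lowest, median and highest knockdown library, with 6 of 6 below the controls (−0.93 ± 0.21, edgeR adjusted p = 0.00144). Thus 3 of 18 intronic changes were called, 2 higher and 1 lower, or 1 higher and 2 lower on the scale of all 4 tables and 1 and 1 without TMM factors. All genes had 14.3%, 23.8% and 4.37% called in LNCaP, LNCaP95 and 22Rv1. In CDS 0 of 6 changes were called by edgeR, with 0 at an unadjusted p under 0.05 and 0 by DESeq2 (all genes 7.10%, 12.5% and 1.01%).

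Reads in the 10 kb downstream rose for SRD5A3 in LNCaP, for HSD17B11 in LNCaP95 and 22Rv1, and for HSD17B12 in LNCaP95. HSD17B12 in LNCaP95 rose from 21.6 to 39.9 CPM in the controls to 154, 188 and 212 CPM as the lowest, median and highest knockdown library, or from 7 to 13 reads to 75 to 112 reads. All 6 knockdown libraries exceeded the controls, with a change of +2.53 ± 0.35 (edgeR adjusted p = 8.74e-09). In LNCaP it had 407, 479 and 725 CPM (+0.45 ± 0.21, edgeR adjusted p = 0.135) and in 22Rv1 565, 646 and 719 CPM (−0.06 ± 0.18, edgeR adjusted p = 0.898), lines in which the controls already stood at 324 to 883 CPM.

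HSD17B11 in LNCaP95 rose from 1, 2 and 12 reads in the controls to 34 to 93 reads in the knockdown libraries, which is 64.9, 115.5 and 179.4 CPM as the lowest, median and highest. The groups did not overlap and the change was +2.73 ± 0.45 (edgeR adjusted p = 5.79e-07), or 4.37 without LNCaP95 CTRL sh 3, the control with 12 reads. In 22Rv1 it rose from 214 to 329 CPM to 416, 460 and 503 CPM as the lowest, median and highest, with 6 of 6 above the controls (+0.66 ± 0.20, edgeR adjusted p = 0.0191). That call was lost without 22Rv1 CTRL sh 3 (0.48, edgeR adjusted p = 0.239), in the fit of all 27 libraries (0.72, edgeR adjusted p = 0.0575) and with CPSF1 sh1 alone (0.69, edgeR adjusted p = 0.0734). In LNCaP the groups overlapped at 12.8 to 35.6 and 8.19 to 50.4 CPM (−0.32 ± 0.56).

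SRD5A3 rose in LNCaP, where the change of its 3′ UTR reads was not called. Its 10 kb reads had 44.9, 16.05 and 14.2 CPM in the controls, from 12, 5 and 4 reads, and 72.3, 90.9 and 126 CPM as the lowest, median and highest knockdown library. All 6 lay above the controls (+1.95 ± 0.40, edgeR adjusted p = 6.97e-05), and the change was 2.64 without LNCaP CTRL sh 1. In LNCaP95 and 22Rv1 the groups overlapped, with changes of +0.26 ± 0.33 and +0.26 ± 0.32 (edgeR adjusted p = 0.601 and 0.696).

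SRD5A1 fell in the 10 kb table as in its other tables in LNCaP95. The controls had 304, 289 and 130 CPM and the knockdown libraries 87.01, 116 and 138 CPM as the lowest, median and highest, with 4 of 6 below all controls (−1.13 ± 0.27, edgeR adjusted p = 0.00064). On the scale of all 4 tables the change was −0.22 and not called (edgeR adjusted p = 0.611). AKR1C3 had 17 to 20 reads in the LNCaP controls, 0 to 6 in the LNCaP95 controls and 4 to 6 in the 22Rv1 controls, and changes of +0.19, +0.72 and +0.27 that were not called. HSD17B4 had 0 reads in its 10 kb region in each of the 27 libraries, where a count of 0 allows up to 3 reads, or 4.12 to 17.6 CPM depending on depth. That region began at chr5:118973194, beyond its introns, and not at the usual end of the gene.

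**Figure D2:**
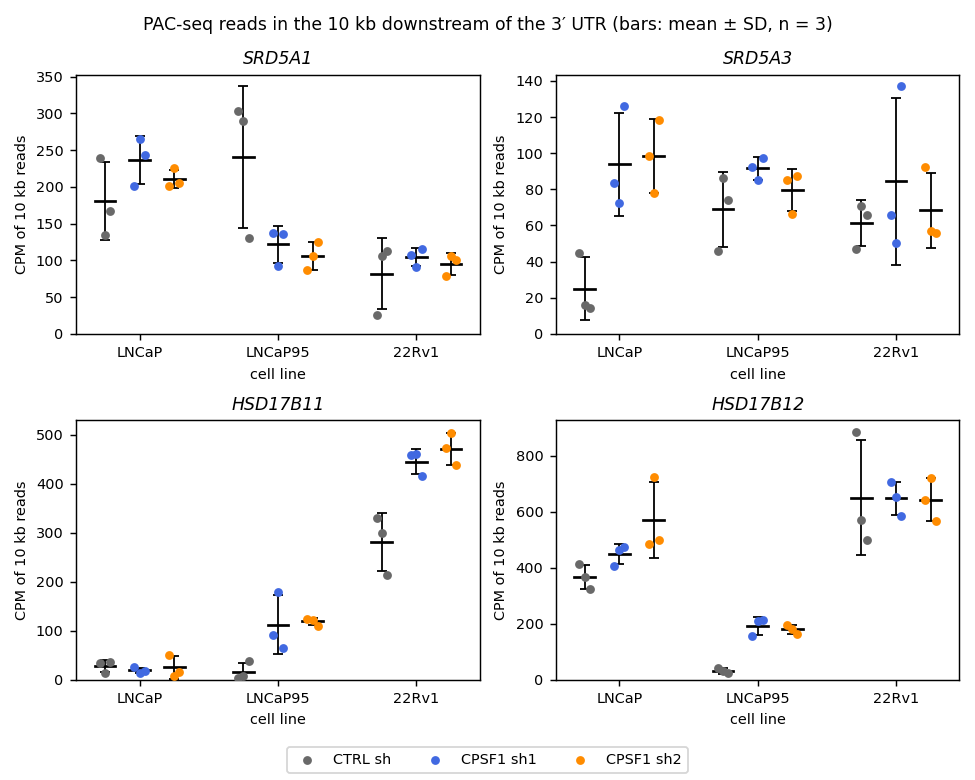
Reads in the 10 kb downstream of SRD5A1, SRD5A3, HSD17B11 and HSD17B12, as CPM of the 10 kb table on the vertical axis, by cell line and shRNA, where points are libraries and bars the mean ± SD of 3. In LNCaP95 both CPSF1 shRNA groups of HSD17B12 (154 to 212 CPM) and HSD17B11 (64.9 to 179.4 CPM) lie above the controls, while in 22Rv1 HSD17B12 is at 497 to 883 CPM in the controls.

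Over the set, 5 of 15 changes of 10 kb reads were called, 4 higher and 1 lower, where all genes had 14.7% called in LNCaP, 27.7% in LNCaP95 and 9.99% in 22Rv1, and 9.52%, 17.6% and 7.26% called higher. The 10 kb table took a larger share of all counted reads after knockdown, 5.44 to 7.40% against 4.80 to 4.98% in LNCaP, 5.10 to 7.10% against 3.48 to 3.75% in LNCaP95 and 5.51 to 6.30% against 4.46 to 4.93% in 22Rv1. Scaling each table to its own total takes this shift out. When libraries were scaled to the reads of all 4 tables, the median gene of the 10 kb table was at +0.62, +1.11 and +0.73 in the 3 lines in place of +0.13, +0.22 and +0.19, and 8 of the 15 changes were called, 8 higher and 0 lower. Those gained were HSD17B12 (1.00) and SRD5A1 (0.80) in LNCaP and SRD5A3 (1.18) and AKR1C3 (1.63) in LNCaP95. The median gene stood at +0.62 and +1.11 in these lines, so that SRD5A3 lay close to it. A call was also more common on this scale. Calls over all genes tested were 2466 among 13441 (LNCaP), 5504 among 14789 (LNCaP95) and 2758 among 14372 (22Rv1).

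The change of HSD17B12 and HSD17B11 in the 10 kb table differed between lines. For HSD17B12 the change in LNCaP95 exceeded that in LNCaP by 2.14 (edgeR adjusted p = 1.24e-05), and the change in 22Rv1 minus that in LNCaP95 was −2.59 (edgeR adjusted p = 1.66e-08). For HSD17B11 the same differences were 3.09 (edgeR adjusted p = 0.000224) and −2.08 (edgeR adjusted p = 0.00168), the latter lost without LNCaP95 CTRL sh 1 (−1.56, edgeR adjusted p = 0.0501). Without LNCaP95 CTRL sh 3 they were 4.72 and −3.71. The rise of SRD5A3 in LNCaP was not shown to differ from its change in LNCaP95 (−1.66, edgeR adjusted p = 0.0538) or in 22Rv1 (−1.67, edgeR adjusted p = 0.0973), though both differences were called without LNCaP CTRL sh 1 (−2.35 and −2.36, edgeR adjusted p = 0.0144 and 0.0303). SRD5A1 had −1.38 (edgeR adjusted p = 0.0112) and 1.29 (edgeR adjusted p = 0.0250), neither called on the scale of all 4 tables (edgeR adjusted p = 0.0904 and 0.126). The former was also lost without LNCaP CTRL sh 2 or LNCaP95 CTRL sh 1, and the latter without LNCaP95 CTRL sh 1 or 2 or 22Rv1 CTRL sh 1. In all, 6 of 15 differences were called, where all genes had 2.88%, 1.20% and 4.75% called for LNCaP95 against LNCaP, 22Rv1 against LNCaP and 22Rv1 against LNCaP95.

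Relative to the 3′ UTR reads of the same gene in the same library, downstream reads rose for 3 enzymes. In LNCaP95 the log2 ratio of 10 kb to 3′ UTR reads rose by 2.97 ± 0.57 for HSD17B11 (edgeR adjusted p = 0.000163), 2.64 ± 0.40 for HSD17B12 (edgeR adjusted p = 6.27e-06) and 1.24 ± 0.36 for SRD5A3 (edgeR adjusted p = 0.00904). It rose by 2.08 ± 0.46 for SRD5A3 in LNCaP (edgeR adjusted p = 0.00274) and by 1.26 ± 0.26 for HSD17B11 in 22Rv1 (edgeR adjusted p = 0.00206). The median gene rose by 0.30 in LNCaP, 0.53 in LNCaP95 and 0.33 in 22Rv1, and 10.3%, 28.0% and 7.45% of all genes were called, against 5 of 13 here. The SRD5A3 call in LNCaP95 was lost without LNCaP95 CTRL sh 1 (0.99, edgeR adjusted p = 0.0641) and with CPSF1 sh1 alone (1.30, edgeR adjusted p = 0.0517), its value in LNCaP was 2.68 without LNCaP CTRL sh 1, and the HSD17B11 value in LNCaP95 was 2.22 without CTRL sh 1 and 4.60 without CTRL sh 3 of that line. On the scale of all 4 tables the values in LNCaP95 were 3.98 for HSD17B11, 3.65 for HSD17B12 and 2.25 for SRD5A3, and that of HSD17B11 in 22Rv1 was 1.86. On that scale the ratios of HSD17B12 in LNCaP (1.11) and of SRD5A3 (1.18), HSD17B12 (0.89) and AKR1C3 (2.33) in 22Rv1 were called as well. The median gene then rose by 0.75 in LNCaP, 1.51 in LNCaP95 and 0.97 in 22Rv1, so that HSD17B12 in 22Rv1 lay below it. Of all genes, 1499 of 9375, 4868 of 10110 and 2562 of 10088 were called in these lines.

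The higher ratio of SRD5A3 in LNCaP95 went with a called fall of its 3′ UTR reads and no called change of its 10 kb reads, and that of SRD5A3 in LNCaP with the reverse, a called rise of 10 kb reads alone. For HSD17B11 in 22Rv1 both were called. HSD17B12 in LNCaP (0.63, edgeR adjusted p = 0.189) and AKR1C3 in 22Rv1 (1.67, edgeR adjusted p = 0.108) had ratios that were not called. The AKR1C3 ratio was called with CPSF1 sh2 alone (2.72, edgeR adjusted p = 0.000743) and without 22Rv1 CPSF1 sh1 1 (1.97, edgeR adjusted p = 0.0247). SRD5A1 had a change of −0.14 ± 0.36 in LNCaP (edgeR adjusted p = 0.856), and was called in none of the 3 lines. For introns against the 3′ UTR, 1 of 16 changes was called (all genes 3.69%, 14.1% and 0.422%), HSD17B4 in LNCaP95 at 1.09 ± 0.25 (edgeR adjusted p = 0.00514). It was lost without LNCaP95 CTRL sh 1 (0.85, edgeR adjusted p = 0.0610). For CDS 0 of 6 were called by edgeR, with 1 at an unadjusted p under 0.05 (all genes 0.132%, 0.784% and 0.0218%).

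The share of the reads counted to a gene that fell in each region differed between the enzymes. In the 10 kb shares of HSD17B11 and SRD5A3, reads of their same-strand neighbours cannot be told apart. The introns of HSD17B4 were counted past its usual end, so its intronic share can hold reads from beyond that end. In the controls, 10 kb reads made up a mean of 38.9% of SRD5A1 reads in LNCaP, 26.1% in LNCaP95 and 28.9% in 22Rv1, which include its annotated end, and after knockdown 52.9%, 39.2% and 41.5%. HSD17B12 had 20.5%, 2.41% and 28.7% in the controls and 37.8%, 23.6% and 39.9% after knockdown. HSD17B11 had 10.3%, 3.40% and 14.0% in the controls and 11.9%, 34.7% and 34.5% after knockdown.

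SRD5A3 kept most of its reads in the 3′ UTR, with 10 kb shares of 2.41%, 2.14% and 6.46% in the controls and 12.5%, 9.14% and 13.7% after knockdown. In 22Rv1, where AKR1C3 had the most reads, its 10 kb share was 2.19 ± 0.83% (SD, n = 3) in the controls and 9.72 ± 7.29% (SD, n = 6) after knockdown. From few reads, its share was 61.9 ± 13.9% and 76.7 ± 11.8% in LNCaP. In LNCaP95 it was 41.7 ± 38.2% and 62.9 ± 10.7%. HSD17B4 had an intronic share of 18.8 ± 4.85% (SD, n = 3) in the LNCaP95 controls and 33.3 ± 9.68% (SD, n = 6) after knockdown. These shares were not tested. The ratio above sets only 2 regions against each other, each scaled to its own table, and for SRD5A1 it gave −0.14, +0.03 and −0.17 in LNCaP, LNCaP95 and 22Rv1, none called, while its 10 kb share was higher after knockdown in each.

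**Figure D3:**
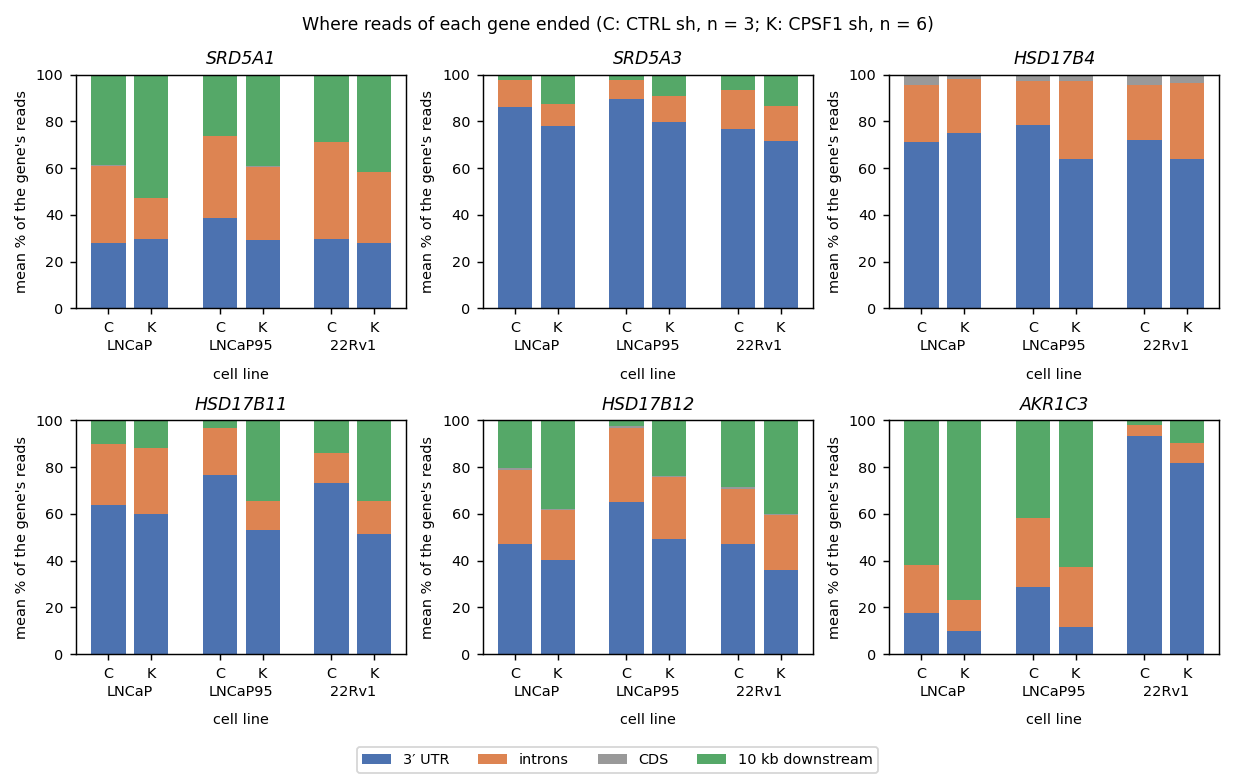
Mean share of the reads of each gene, in percent on the vertical axis, that fell in the 3′ UTR, the introns, the CDS and the 10 kb downstream, for control (C, n = 3) and CPSF1 knockdown (K, n = 6) libraries of each line. The 10 kb share of HSD17B12 in LNCaP95 is 2.41% in the controls and 23.6% after knockdown, that of HSD17B11 3.40% and 34.7%, and HSD17B4 has no 10 kb reads.

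Summed over the 4 regions, expression fell for both 5α-reductase family members in LNCaP95 and for AKR1C3 in 22Rv1. SRD5A1 changed by −0.81 ± 0.14 in LNCaP95 (edgeR adjusted p = 0.000161), SRD5A3 by −0.89 ± 0.12 in LNCaP95 (edgeR adjusted p = 1.80e-05) and AKR1C3 by −1.33 ± 0.16 in 22Rv1 (edgeR adjusted p = 0.000219), each with 6 of 6 knockdown libraries below the controls. SRD5A1 (+0.42 ± 0.14, edgeR adjusted p = 0.0353) and HSD17B4 (+0.49 ± 0.18, edgeR adjusted p = 0.0467) were called higher in LNCaP, with 4 of 6 knockdown libraries above the controls for each. The LNCaP calls were weak, and held in 4 of 9 and 3 of 9 fits that left out a library. For HSD17B11 and HSD17B12 in LNCaP95, whose 10 kb reads rose, the summed reads changed by +0.29 ± 0.17 and +0.21 ± 0.12, neither called (edgeR adjusted p = 0.190 and 0.180). In all, 5 of 17 changes were called, 2 higher and 3 lower, or 4 higher and 3 lower without TMM factors, where all genes had 27.5%, 34.3% and 7.57% called.

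**Figure D4:**
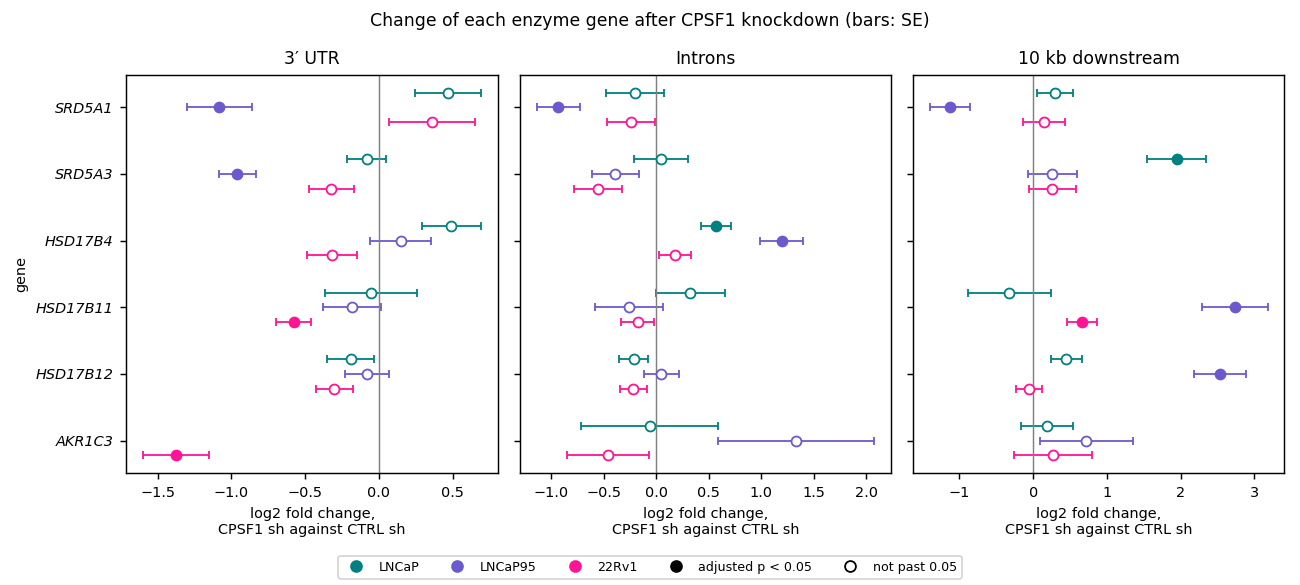
Log2 fold change of each gene, CPSF1 sh against CTRL sh, in the 3′ UTR, the introns and the 10 kb downstream, with bars for the SE, colours for the lines and filled points for adjusted p under 0.05. The 3′ UTR changes that pass all lie below 0, from −1.37 for AKR1C3 to −0.58 for HSD17B11, and 4 of the 5 that pass in the 10 kb panel lie above 0, where a gene with no point was not tested.

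The shRNAs against CPSF1 were also fitted apart, each against the same 3 controls of its line. In LNCaP95 each gave a called fall of SRD5A1 and SRD5A3 3′ UTR reads, of −0.93 and −0.91 with CPSF1 sh1 (edgeR adjusted p = 0.0308 and 0.00229) and −1.24 and −1.0 with CPSF1 sh2 (edgeR adjusted p = 0.000828 and 3.28e-05). Each also gave a called rise of 10 kb reads in LNCaP95, of 2.69 and 2.80 for HSD17B11 (edgeR adjusted p = 1.21e-05 and 1.01e-07) and of 2.59 and 2.50 for HSD17B12 (edgeR adjusted p = 1.37e-07 and 4.58e-09). SRD5A3 in LNCaP rose by 1.94 and 1.92 in the 10 kb table (edgeR adjusted p = 0.000250 and 0.000808), and HSD17B4 intronic reads in LNCaP95 rose by 1.12 and 1.28 (edgeR adjusted p = 0.00349 and 3.78e-06). For HSD17B11 in 22Rv1, CPSF1 sh2 alone passed in the 3′ UTR (−0.64, edgeR adjusted p = 0.0410) and CPSF1 sh1 alone did not (−0.51, edgeR adjusted p = 0.398). For HSD17B4 in LNCaP, CPSF1 sh1 alone gave a called rise of 3′ UTR reads (+0.68, edgeR adjusted p = 0.00634). CPSF1 sh2 alone did not (+0.28, edgeR adjusted p = 0.408). Of all genes, 23.9% and 10.5% were called with CPSF1 sh1 and CPSF1 sh2 for 3′ UTR reads in LNCaP. The difference between shRNAs was not tested. Of all genes, 14.9% and 31.8% were called with CPSF1 sh1 and CPSF1 sh2 for 3′ UTR reads in LNCaP95, 0.0262% and 2.11% in 22Rv1, 12.8% and 22.9% for introns in LNCaP95, and 11.4% and 13.6%, 16.5% and 24.8%, and 4.41% and 11.2% for 10 kb reads in LNCaP, LNCaP95 and 22Rv1.

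The genes whose 3′ UTR level followed each enzyme most closely over the 27 libraries were taken from 8791 genes with at least 10 CPM, by Pearson r of log2 CPM. They are a description, since libraries share lines and treatments and a gene that differs between lines follows any other that differs in the same way. SRD5A1 was followed by FNIP1 (r = 0.886) and PDHX (r = 0.880), and SRD5A3 by MED8 and CENPN (r = 0.938 for each). HSD17B4 was followed by TIMMDC1 (r = 0.901) and EIF3M (r = 0.888), HSD17B11 by ZNF503 (r = 0.960) and HMGN2 (r = 0.959), and HSD17B12 by ARPC1B (r = 0.905) and GSDMD (r = 0.898). AKR1C3 was followed by ALDH3A2, a fatty aldehyde dehydrogenase (r = 0.966), and PAQR4 (r = 0.962).

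Other genes of steroid synthesis and conversion moved in both directions. The tables held 36 of them. LNCaP had 3 higher and 5 lower among the 20 tested for 3′ UTR reads (median +0.12), LNCaP95 had 2 and 5 among 18 (median −0.12), and 22Rv1 had 0 called among 19 (median −0.06), where the median over all genes was +0.02, +0.01 and −0.01 and 18.3%, 30.5% and 1.47% of all genes were called in either direction. SULT2B1, a sulfotransferase of cholesterol and other hydroxysteroids, fell by 1.64 in LNCaP and by 1.61 in LNCaP95 on the log2 scale (edgeR adjusted p = 0.000859 and 0.000245). STS, which releases steroids from their sulfates, rose in LNCaP (+1.24, edgeR adjusted p = 0.0114). HSD17B14 fell in LNCaP95 (−1.18, edgeR adjusted p = 0.0449). Of their 10 kb reads, LNCaP had 0 higher and 2 lower among 18 (median −0.33), LNCaP95 had 2 and 1 among 20 (median +0.35), and 22Rv1 had 0 and 1 among 20 (median +0.40), beside +0.13, +0.22 and +0.19 over all genes, of which 14.7%, 27.7% and 9.99% were called.

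Peroxisomal β-oxidation, the other pathway of HSD17B4, had 17 listed genes. For 3′ UTR reads LNCaP had 5 higher and 1 lower among 16 (median +0.34), LNCaP95 had 2 and 1 among 15 (median +0.14), and 22Rv1 had 0 called among 13 (median +0.04), beside 18.3%, 30.5% and 1.47% of all genes. ACOX2, a branched-chain acyl-CoA oxidase, rose in LNCaP (+2.06, edgeR adjusted p = 0.00389), and ABCD3, a peroxisomal fatty acid transporter, rose in LNCaP95 (+1.30, edgeR adjusted p = 1.59e-05). ACOX3 fell in both lines (−1.57 and −0.89, edgeR adjusted p = 0.000881 and 0.00608). ECI2, an enoyl-CoA isomerase, was called in all 3 lines in its 10 kb reads, which rose by 3.14 in LNCaP, 3.68 in LNCaP95 and 2.93 in 22Rv1 (edgeR adjusted p = 1.46e-10, 2.71e-09 and 0.000407). As a whole the list had 1 higher and 1 lower 10 kb count among 14 genes for LNCaP (median +0.87), 4 and 1 among 14 for LNCaP95 (median +0.81), and 2 and 1 among 14 for 22Rv1 (median +0.53), where all genes had medians of +0.13, +0.22 and +0.19 and 14.7%, 27.7% and 9.99% called.

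Fatty acid elongation had 11 listed genes in the tables beside HSD17B12. For 3′ UTR reads LNCaP had 1 higher and 1 lower among 7 (median +0.17), LNCaP95 had 1 and 2 among 7 (median −0.07), and 22Rv1 had 0 called among 9 (median −0.15), against 18.3%, 30.5% and 1.47% of all genes with medians of +0.02, +0.01 and −0.01. The elongases ELOVL1 (−1.06, edgeR adjusted p = 7.15e-05) and ELOVL5 (−0.93, edgeR adjusted p = 3.24e-05) fell in LNCaP95. The LNCaP line had a fall of ELOVL6 (−0.93, edgeR adjusted p = 7.11e-05) and a rise of ELOVL7 (+1.43, edgeR adjusted p = 0.000618). Of the 10 kb reads, LNCaP had 1 higher among 9, LNCaP95 had 1 higher and 2 lower among 9 and 22Rv1 had 2 higher among 11 (all genes 14.7%, 27.7% and 9.99%).

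Dolichol and lipid-linked oligosaccharide synthesis, the pathway of SRD5A3, had 22 listed genes, all tested for 3′ UTR reads. LNCaP had 1 higher, ALG1 (+0.80, edgeR adjusted p = 0.0122), LNCaP95 had 2 higher and 4 lower, and 22Rv1 had 0 called. The medians were +0.13, +0.23 and −0.16, and all genes had 18.3%, 30.5% and 1.47% called with medians of +0.02, +0.01 and −0.01. DPM3 (−0.71, edgeR adjusted p = 0.0147) and ALG9 (−0.65, edgeR adjusted p = 0.00924) were among those that fell in LNCaP95, beside −0.96 for SRD5A3. Of the 10 kb reads, LNCaP had 3 higher and 3 lower among 19, LNCaP95 had 4 and 3 among 20, and 22Rv1 had 1 and 1 among 20 (all genes 14.7%, 27.7% and 9.99%). Over the 63 genes of the 4 lists tested for 3′ UTR reads in 22Rv1, edgeR called 0 and 12 had an unadjusted p under 0.05. Of all 11501 genes tested there, 1637 had an unadjusted p under 0.05.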

How the data were processed

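PAC-seq counts from 27 libraries of 3 cell lines were used, in 4 tables of raw counts per gene that were deposited by the authors. Per the study's methods, the authors trimmed reads and removed poly(A) with DPAC, mapped them to hg19, and counted each read on its strand by its 3′-most base in the 3′ UTR (extended by 300 bases), intron, CDS or 10 kb downstream region of a gene. Tools named in the submitters' processing notes include HISAT2 2.1.0 and Subread 2.0.3. A change in where a transcript ends therefore moves reads from one table to another.

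The members and the pathway lists were chosen with earlier results of these data known. Counts were tested with the edgeR 4.0.16 quasi-likelihood test (limma 3.58.1, R 4.3.3) on TMM-scaled libraries, for genes with a mean above 2 CPM in the libraries compared. Tests were two-sided, with p adjusted by Benjamini-Hochberg over all genes tested and a threshold of 0.05. Each line was fitted on its 3 control and 6 knockdown libraries, controls on 9 libraries, and differences between lines on all 27. The ratio to 3′ UTR reads was tested as the region-by-knockdown term of a fit with each library as a term. All reads of a gene are the sum of its 4 tables. On simulated counts, with 200 genes changed 2-fold up or down, the knockdown test called 5.41 to 9.95% of changed genes in the 10 kb table (12950 to 14358 genes tested) and 27.8 to 50.3% in the other tables (4762 to 12337 genes tested), so that a result that was not called does not exclude a change of this size. The 10 kb ratio test called 46.2 to 61.9% of 4-fold changes (9375 to 10110 genes tested). False calls made up at most 7.14% of calls in the 10 kb table, 6.90% in the other tables and 8.08% for the ratio. The simulation gave every gene, line and table the same spread between libraries, so its rates need not hold for the real counts. DESeq2 1.42.0, other filters, other scalings, each shRNA alone, a replicate block and leave-one-out fits were alternatives.

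The genes named are the 6 members, CPSF1, same-strand neighbours in a 10 kb region, and for each member the 2 genes of highest correlation with a mean of at least 10 CPM (log2 CPM with a prior count of 2). Of each list they are genes called in all 3 lines in 1 direction and the 2 called 3′ UTR changes of largest size per line. The members were left out of the lists, and some genes that the rule or the marker lists name are not reported here. AKR1C1 and AKR1C2 stand outside this rule, as paralogs of AKR1C3, and were named after their values were seen. The study's methods call the replicates biological. No pair of libraries of a group agreed within sampling noise (lowest chi-square per gene 3.01), so each was counted as a separate replicate. Precision of a count of a few reads is set by counting error and is low.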

Additional observations from a re-analysis of the deposited data

Results flagged for a closer look

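Among 72 groups of 6 knockdown libraries, 4 held a library whose gap to its nearest neighbour was a large part of the range of the group, and chance gives this in about 1 of 20 groups. HSD17B4 introns in 22Rv1 had 44.2 CPM in CPSF1 sh1 1, from 125 reads, where the next library had 58.1 CPM. HSD17B11 reads summed over the 4 regions in 22Rv1 were highest in CPSF1 sh2 2, at 95.6 CPM against 86.8 CPM in the next. HSD17B12 10 kb reads in LNCaP were highest in CPSF1 sh2 2, at 724.6 CPM against 498.3 CPM. AKR1C3 10 kb reads in LNCaP95 were highest in CPSF1 sh2 3, at 28.5 CPM from 15 reads, against 21.8 CPM.

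The change after CPSF1 knockdown differed between cell lines in 10 tests of the difference itself, on the log2 scale. For 3′ UTR reads of SRD5A1 the change in LNCaP95 minus that in LNCaP was −1.55 and that in 22Rv1 minus that in LNCaP95 was 1.45, and for SRD5A3 these were −0.87 and 0.64. For 10 kb reads they were −1.38 and 1.29 for SRD5A1, 3.09 and −2.08 for HSD17B11, and 2.14 and −2.59 for HSD17B12. Each of these tests uses the 9 LNCaP95 libraries.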

How the results depend on the processing

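Among the members, 4 of 16 changes of 3′ UTR reads, 3 of 18 of intronic reads and 6 of 15 differences between lines in the 10 kb table were called, and these counts stayed within 1.5 times of themselves under every alternative and leave-one-out fit run. With library sizes summed over the 4 tables, called changes of 10 kb reads went from 5 to 8 and called changes of their ratio to 3′ UTR reads from 5 to 9. Calls over all genes rose as well. For 10 kb reads they went from 1979 to 2466 (LNCaP), 4099 to 5504 (LNCaP95) and 1436 to 2758 (22Rv1). For the ratio they went from 970 to 1499, 2834 to 4868 and 752 to 2562 in the same order. With CPSF1 sh1 alone the single called ratio of intronic reads was lost, leaving 0. Leave-one-out fits gave 3 to 7 calls for all reads after knockdown (5 with every library; 3 without LNCaP CTRL sh 2 or 3, LNCaP CPSF1 sh1 1 or 2, or LNCaP CPSF1 sh2 1), 5 to 8 for 10 kb reads of the controls (5 without LNCaP CTRL sh 3) and 0 to 1 for the intronic ratio (0 without LNCaP95 CTRL sh 1). The cause of these changes was not tested.

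Of 215 results for a member in a fit, 73 passed the threshold, 27 passed only under an alternative and 115 under none. AKR1C3 over all reads in LNCaP95 was under the filter on low values and is not among them. Its means were 0.967 CPM in the controls and 2.20 CPM after knockdown. It was tested without a filter, without LNCaP95 CTRL sh 2 and in the fit of all 27 libraries, and no change is drawn from those fits. In that last fit its level in the other lines carried it past the filter. No fold or test is given for it, as it is near 0 in LNCaP95. Of the 115, 54 changed sign under some setting, and those that passed under any setting kept their sign in every alternative run. Replicate numbers did not pair the libraries: deviations of same-numbered libraries of a line correlated at −0.257 to 0.392 over 27 pairs, with a median of −0.047. With the number as a block, 10 kb calls between controls went from 8 to 7 and those over all reads from 13 to 14, with HSD17B4 between 22Rv1 and LNCaP now called (−0.39, edgeR adjusted p = 0.0270), and every other count was as without it (4 for 3′ UTR reads after knockdown, 3 for introns, 5 for the 10 kb table). Depth limits the 10 kb table most: control libraries held 1 to 12 reads of HSD17B11 in LNCaP and LNCaP95, 7 to 13 of HSD17B12 in LNCaP95 and 0 to 20 of AKR1C3 in the 3 lines.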
